A study of Mus musculus with 12 samples.

Results

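The chemokine receptor *Cxcr4*, its ligands *Cxcl12* and *Mif*, and *Ackr3*, the scavenging receptor that also binds CXCL12, were followed through RNA-seq libraries of satellite cells, the stem cells of skeletal muscle. These 4 genes were taken by name from the 55401 genes of the count table, and all 4 were among the 25771 genes with enough counts to be tested. The sequenced RNA came from Pax7-ZsGreen+ cells of mouse hind limbs, isolated by FACS. All groups carried CXCR4 FL/FL and Pax7-ZsGreen and received tamoxifen, 80 mg/kg on 5 days. *Cxcr4* KO mice also carried Pax7-creERT2 and *Cxcr4* WT mice had no cre, so that the deletion and the cre transgene changed together between genotypes. There were 4 WT and 4 KO libraries of freshly sorted cells, called quiescent, and 2 WT and 2 KO libraries of sorted cells kept in growth medium overnight, called activated. All mice were adult. Because the Pax7-driven cre acts in satellite cells, any other cell type in a sort keeps its *Cxcr4*, as does a satellite cell that escapes recombination.

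CXCL12, also called SDF1, is a secreted chemokine that signals through CXCR4, a receptor coupled to inhibitory G proteins, and guides cell migration and the retention of stem cells in their niches. ACKR3, also called CXCR7, binds the same chemokine, recruits arrestins rather than G proteins and removes CXCL12 from the surroundings. MIF is a cytokine that binds CD74 and can also act on CXCR4. In muscle, CXCL12 is produced mainly by endothelial cells and fibroadipogenic progenitors, and CXCR4 is carried by satellite cells.

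The genes lie apart from one another except for the receptors, which share a chromosome. In GRCm38 with GENCODE M21, *Cxcr4* (ENSMUSG00000045382) spans chr1:128588199-128592293 on the minus strand, and *Ackr3* (ENSMUSG00000044337) spans chr1:90203980-90216751 on the plus strand. *Cxcl12* (ENSMUSG00000061353) spans chr6:117168535-117181367 on the plus strand, and *Mif* (ENSMUSG00000033307) spans chr10:75859353-75860240 on the minus strand. No annotated gene overlaps any of the 4. The floxed *Cxcr4* allele carries loxP sites around exon 2, at 128588199 to 128589901, which holds 94.3% of the 1805 bases of the main transcript and 98.1% of its 1077 coding bases. Exon 1 encodes 7 of the 359 codons. The counts are per gene, so that reads of exon 2 and of exon 1 could not be told apart.

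The 250 bases before each RefSeq start (GRCm38.p6) are shown because *Cxcr4* and *Ackr3* on the one hand and *Mif* on the other moved in opposite directions between states, and hypoxia-inducible factors, NRF1 and SP1 are known regulators of some of these genes. The windows are chr1:128592300-128592549 (minus) for *Cxcr4*, chr6:117168285-117168534 (plus) for *Cxcl12*, chr10:75860278-75860527 (minus) for *Mif* and chr1:90203730-90203979 (plus) for *Ackr3*, each written 5′ to 3′ on the strand of the gene. Capitals mark 5 sets of letters on either strand. The core of the hypoxia response element was searched as ACGTG and in its other form as GCGTG. Part of the NRF1 site was searched as GCGCATG, the GC box as GGGCGG and the TATA box as TATAAA.
*Cxcr4*: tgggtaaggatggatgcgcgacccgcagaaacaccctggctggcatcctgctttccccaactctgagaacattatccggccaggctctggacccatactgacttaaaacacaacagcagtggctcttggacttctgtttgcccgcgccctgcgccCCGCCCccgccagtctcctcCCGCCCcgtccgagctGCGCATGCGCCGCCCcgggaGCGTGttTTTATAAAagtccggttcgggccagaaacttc
*Cxcl12*: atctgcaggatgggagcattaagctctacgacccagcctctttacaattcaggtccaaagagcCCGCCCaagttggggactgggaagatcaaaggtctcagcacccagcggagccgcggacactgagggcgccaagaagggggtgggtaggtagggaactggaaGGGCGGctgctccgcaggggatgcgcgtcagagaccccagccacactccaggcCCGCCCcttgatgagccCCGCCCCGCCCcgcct
*Mif*: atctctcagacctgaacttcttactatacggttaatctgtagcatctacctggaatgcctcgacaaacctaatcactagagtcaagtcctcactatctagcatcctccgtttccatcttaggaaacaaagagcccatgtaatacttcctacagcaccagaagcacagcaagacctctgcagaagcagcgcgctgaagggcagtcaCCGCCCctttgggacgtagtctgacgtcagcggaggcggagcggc
*Ackr3*: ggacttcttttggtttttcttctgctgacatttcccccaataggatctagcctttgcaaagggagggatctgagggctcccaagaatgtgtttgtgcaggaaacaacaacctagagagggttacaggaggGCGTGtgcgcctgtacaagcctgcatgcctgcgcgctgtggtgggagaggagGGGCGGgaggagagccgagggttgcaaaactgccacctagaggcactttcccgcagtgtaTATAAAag
The *Cxcr4* window held the NRF1 letters 2 times, as overlapping matches on opposite strands that begin 59 and 56 bases before the start, and 3.236% of 32851 windows of this length held them. It also held 3 GC boxes, of which the one nearest the start overlaps the NRF1 letters, 1 GCGTG and 2 overlapping TATAAA matches. The *Cxcl12* window held 5 GC boxes and none of the other letters. The *Mif* window held 1 GC box, and the *Ackr3* window held 1 each of GCGTG, the GC box and TATAAA. Over all windows, 28.157% held GCGTG, 16.572% held ACGTG, 32.742% held a GC box and 12.368% held TATAAA. These matches describe letters and not bound sites.

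Quiescent libraries held 12775593 to 23717013 counts and activated libraries 3172164 to 5427280. A single rRNA-rich gene took 0.295% to 0.807% of the counts in quiescent libraries, 12.6% and 40.3% in activated WT and 11.5% and 28.8% in activated KO libraries, and was highest in the library numbered 2 of each genotype. The 4 Y-linked genes measured had 6363 to 13973 counts in each of the 8 quiescent libraries and 0 to 11 in each of the 4 activated libraries, whereas *Xist* had 25 to 101 and 1030 to 4899 counts. State therefore cannot be told apart from the sex of the mice or from depth in any comparison of activated with quiescent cells. Of the 8 satellite cell markers, 7 were detected in every library and *Calcr*, the calcitonin receptor gene, had 0 counts in 1 activated KO library. *Pax7*, the gene that defines these cells, was at 392 ± 85.0 CPM in quiescent WT (SD, n = 4) and 109 ± 2.69 CPM in activated WT (SD, n = 2). In quiescent KO it was at 247 ± 49.7 CPM (SD, n = 4), a log2 fold change of -0.67 (SE 0.23) against WT that did not pass. The 8 markers summed to 1664 to 1919 CPM in quiescent WT, 1180 to 2302 in quiescent KO, 500.5 to 540 in activated WT and 335 to 484 in activated KO. Summed over the 10 endothelial markers, the level was 645 to 1576 CPM in quiescent WT, 353 to 1743 in quiescent KO, 145 to 854 in activated WT and 154 to 466 in activated KO, with no marker at 0 in any group. The 10 fibroadipogenic progenitor markers summed to 1240 to 1920 CPM in quiescent WT, 358 to 3283 in quiescent KO, 290.3 to 767 in activated WT and 371 to 603 in activated KO. The 10 hematopoietic markers summed to 59.4 to 100.0, 62.3 to 223, 26.3 to 28.8 and 21.6 to 34.7 CPM in the same order of groups, with *Tyrobp* and *Cd52* at 0 in activated WT libraries. The 6 muscle fibre markers summed to 236 to 590.0 CPM in quiescent WT, 311 to 839 in quiescent KO, 6026 to 13519 in activated WT and 8142 to 14909 in activated KO, the widest shift with state among these lists. The 6 pericyte and smooth muscle markers summed to 619 to 1789, 465 to 1793, 252 to 338 and 204 to 317 CPM in the same order, and no marker of either list was at 0 in any group. CPM are counts scaled by library size with TMM factors, and fewer cells of a type and less RNA per cell cannot be told apart in these bulk samples.

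**Figure D1:**
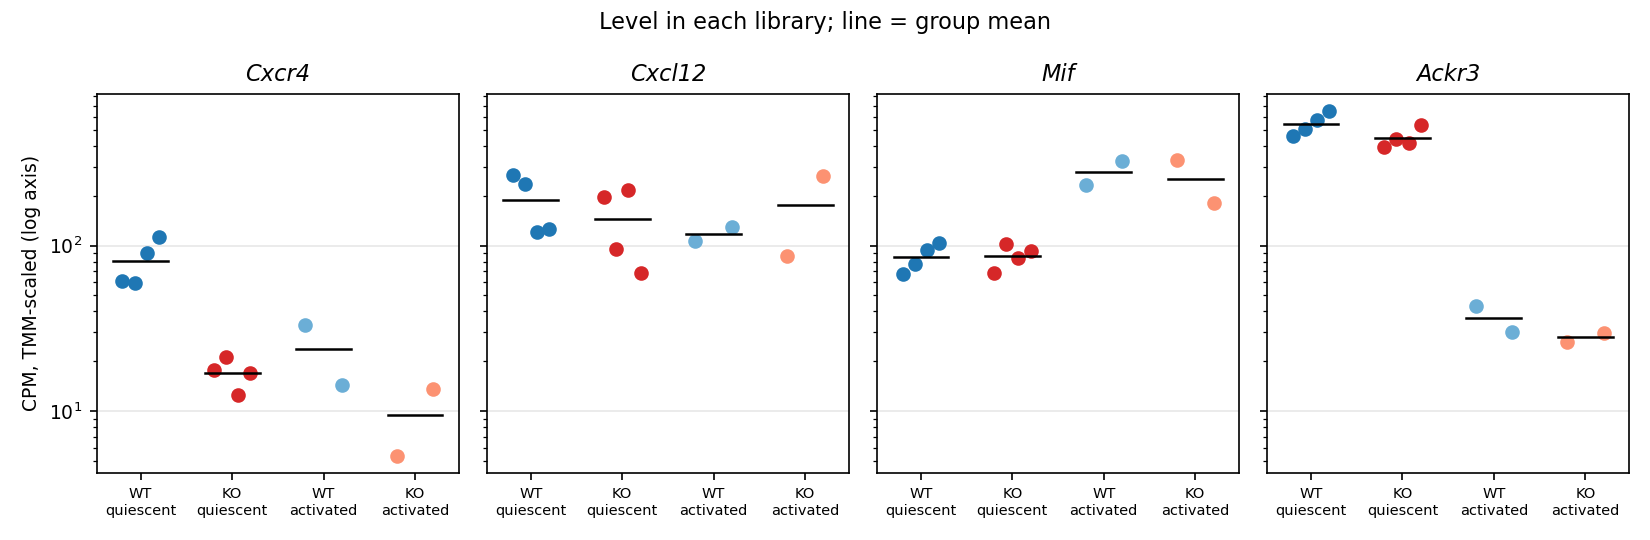
Level of each gene in CPM (log axis) in each of the 12 libraries, with 1 point per library in replicate order and a line at the group mean. *Cxcr4* in quiescent KO libraries lies between 12.5 and 21.2 CPM, below all WT libraries of that state, and *Ackr3* and *Mif* separate the activated from the quiescent libraries in opposite directions.

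*Cxcr4*, the deleted receptor, was lower in KO than in WT cells in the quiescent state. Quiescent WT libraries had 61.2, 59.1, 89.6 and 112 CPM, from 833 to 2330 counts each. Quiescent KO libraries had 17.6, 21.2, 12.5 and 17.1 CPM, from 302 to 362 counts. The lowest WT library lay above the highest KO library, as held for 0.827% of genes, and each KO library kept 15.6% to 26.3% of the WT mean. The log2 fold change was -2.24 (SE 0.31), a 4.71-fold decrease with an adjusted p of 0.00477 from edgeR's quasi-likelihood test, in a comparison in which 0.0155% of genes were called. *Cxcr4* was the only one of the 4 genes called there. In WT, the libraries numbered 1 and 2 had the lower *Cxcr4* levels and summed endothelial marker levels of 1576 and 1554 CPM, while those numbered 3 and 4 had endothelial marker levels of 645 and 757 CPM. Endothelial sums in quiescent KO libraries 1 to 4 were 1743, 599, 1550 and 353 CPM. There the library with the highest sum, KO 1, had slightly more *Cxcr4* than that with the lowest, KO 4. Hematopoietic markers summed to 68.1, 59.4, 79.2 and 100.0 CPM in quiescent WT libraries 1 to 4, the same order of level as *Cxcr4*. In quiescent KO libraries 1 to 4 they summed to 95.2, 100.0, 62.3 and 223 CPM. Apart from the KO library with 223 CPM, these sums also followed the order of *Cxcr4*. That library had 17.1 CPM of *Cxcr4*, within the range of the other 3. The part of other cell types in the remaining *Cxcr4* counts was not tested.

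After overnight culture, the *Cxcr4* levels of both genotypes were low and spread widely. Activated WT libraries had 33.3 and 14.5 CPM, from 204 and 33 counts. Activated KO libraries had 5.39 and 13.7 CPM, from 21 and 60 counts, which is 22.6% and 57.3% of the WT mean. The higher KO library lay just under the lower WT library, so that the groups did not overlap, as held for 9.5% of genes in this direction. The log2 fold change of -1.35 (SE 0.46) did not pass edgeR's quasi-likelihood test, with an adjusted p of 0.381, in a comparison in which 0.0504% of genes were called. With the libraries numbered 2 of both genotypes left out, it was -2.65 with an adjusted p of 0.0483, with 1 library left per group and the spread taken from the other groups. It was -0.69 without the WT library numbered 1 and -2.24 without the KO library numbered 2. Within each genotype, the activated library with more *Cxcr4* also had more endothelial marker RNA, 854 against 145 CPM in WT and 466 against 154 CPM in KO. The summed fibroadipogenic progenitor, pericyte and smooth muscle, and hematopoietic markers were higher in those libraries too. Satellite cell markers followed this order in WT only, and muscle fibre markers in KO only. The part of any of these cell types in the *Cxcr4* levels was not tested. The effect of the knockout differed between states by 0.89 (SE 0.55) on the log2 scale, with an adjusted p of 0.856 by edgeR and a nominal 95% interval from -0.18 to 1.96. This and later 95% intervals of log2 fold changes span 1.96 SE on each side and are narrower than those of the test itself. No gene passed this test of the difference by edgeR, with 1699 at an unadjusted p under 0.05 and 47 called by DESeq2.

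*Cxcr4* was lower in activated than in quiescent WT cells. Both activated WT libraries lay under the lowest quiescent WT library, as held for 38.4% of genes, and the log2 fold change was -1.72 (SE 0.40, adjusted p = 0.00283 by edgeR). In this comparison 29.8% of genes were called and 18.3% were called lower, against a median log2 fold change over all tested genes of -0.92. Leaving out the activated WT library numbered 2 gave -1.22 with an adjusted p of 0.0770, and leaving out that numbered 1 gave -2.40 with an adjusted p of 0.00165. In KO cells the activated libraries, at 5.39 and 13.7 CPM, overlapped the quiescent range. The change of -0.83 (SE 0.41, adjusted p = 0.117 by edgeR) did not pass there, and it was -1.65 with an adjusted p of 0.0329 without the activated KO library numbered 2 and -0.32 with an adjusted p of 0.619 without that numbered 1. These values share the quiescent and activated libraries with the comparisons of KO with WT.

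*Cxcl12*, the ligand shared by both receptors, overlapped between the groups in every comparison. Quiescent WT libraries had 268, 237, 121 and 125 CPM. Quiescent KO libraries had 196, 95.9, 216 and 68.4 CPM. The genotypes overlapped over most of their range, and the log2 fold change was -0.38 (SE 0.37, adjusted p = 1 by edgeR) with a 95% interval from -1.10 to 0.34. Activated WT libraries had 107 and 129 CPM, and activated KO libraries had 86.8 and 264 CPM. The KO pair enclosed the WT pair, with a log2 fold change of 0.58 (SE 0.53, adjusted p = 0.879 by edgeR, 95% interval from -0.46 to 1.61) that was -0.50 without the KO library numbered 2. Activated and quiescent libraries also overlapped, with log2 fold changes of -0.67 (SE 0.47, adjusted p = 0.266) in WT and 0.28 (SE 0.45, adjusted p = 0.621) in KO by edgeR. No change in *Cxcl12* was therefore detectable between genotypes or states at this number of libraries.

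The *Cxcl12* levels were read beside the markers of the cell types known to produce it. Among the quiescent libraries, WT 1, WT 2, KO 1 and KO 3 had mean endothelial marker levels of 6.86, 6.84, 7.01 and 6.87 log2 CPM and *Cxcl12* levels of 196 to 268 CPM. WT 3, WT 4, KO 2 and KO 4 had 5.63, 5.88, 5.54 and 4.71 log2 CPM and *Cxcl12* levels of 68.4 to 125 CPM. Each set held 2 libraries of each genotype. The pericyte and smooth muscle markers split the libraries in the same way. Their mean levels were 7.07, 7.31, 7.05 and 7.36 log2 CPM in the first set and 6.17, 6.25, 6.03 and 5.55 in the second. The part of either cell type in the *Cxcl12* levels was not tested. Because the libraries lay on both sides of a gap in the endothelial level, no correlation over all 8 is given here, and none within sets of 4 libraries, which are too few for one. For the fibroadipogenic progenitor markers, Pearson's r with *Cxcl12* over the 8 quiescent libraries was 0.629 (exact permutation p = 0.0937, also 0.0937 when adjusted over the 2 marker lists) and Spearman's rho was 0.738 (exact permutation p = 0.0458). Without the 2 libraries farthest from the median marker level, which leaves 6, r was 0.397 (exact permutation p = 0.401). Leaving out 1 library at a time gave 0.471 to 0.849, the latter without the KO library numbered 1 (exact permutation p = 0.0202). With the marker level taken as the log2 of the summed CPM, r was 0.161 (exact permutation p = 0.711). The KO library numbered 1 had a fibroadipogenic marker level among the lowest, 4.22 log2 CPM, with 196 CPM of *Cxcl12* and the highest endothelial level. In activated WT cells *Cxcl12* was at 129 CPM in the library with an endothelial level of 3.44 log2 CPM and at 107 CPM in that with 5.98, while in activated KO cells it was at 86.8 CPM in the library with 3.64 and at 264 CPM in that with 5.27.

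**Figure D2:**
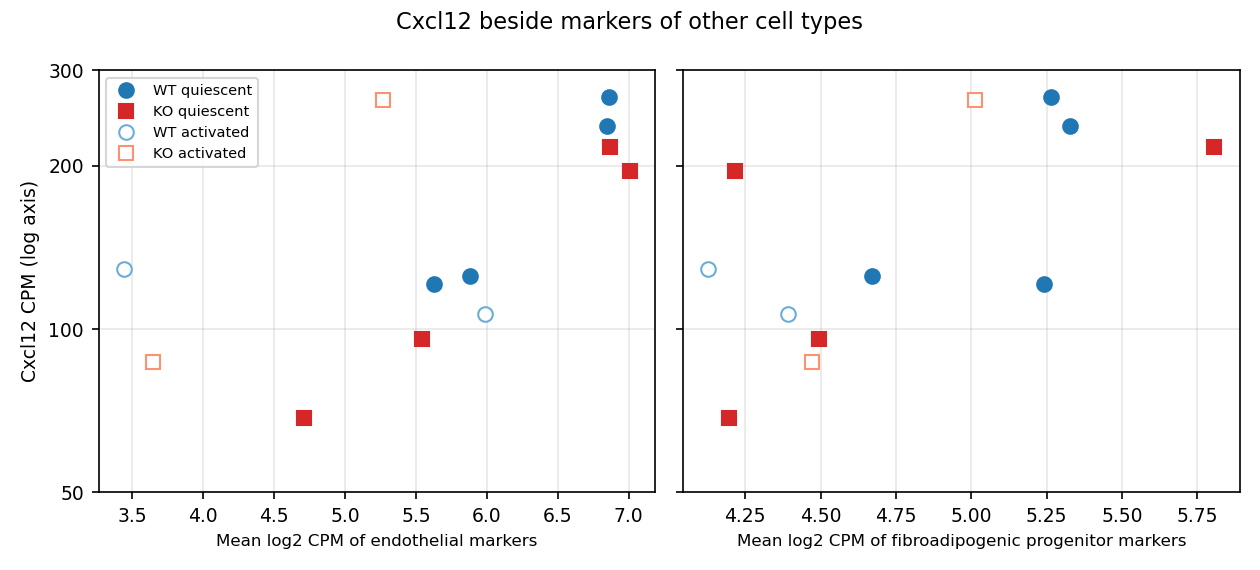
*Cxcl12* in CPM (log axis) against the mean log2 CPM of 10 endothelial markers (left) and 10 fibroadipogenic progenitor markers (right), with 1 point per library, circles for WT, squares for KO, filled for quiescent and open for activated. The 4 quiescent libraries at endothelial levels of 6.84 to 7.01 have 196 to 268 CPM of *Cxcl12*, and the 4 at 4.71 to 5.88 have 68.4 to 125 CPM.

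*Mif*, the second ligand, was higher in activated than in quiescent cells of both genotypes and did not pass the test between genotypes. Quiescent WT libraries had 67.2, 77.9, 93.6 and 104 CPM, and activated WT libraries had 231 and 322 CPM. Every activated WT library lay above every quiescent one, as held for 17.6% of genes, and *Mif* rose 3.23-fold (log2 fold change 1.69, SE 0.27, adjusted p = 8.34e-05 by edgeR) where 11.5% of genes were called higher. Quiescent KO libraries had 68.7, 102, 83.6 and 92.4 CPM, and activated KO libraries had 327 and 180 CPM. These groups did not overlap either, as held for 18.3% of genes, and *Mif* rose 2.92-fold (log2 fold change 1.54, SE 0.27, adjusted p = 0.000192 by edgeR) in KO cells, where 13.3% of genes were called higher. Between KO and WT the log2 fold change was 0.02 (SE 0.23) in the quiescent state, with a 95% interval from -0.43 to 0.47, and -0.13 (SE 0.32) in the activated state, with an interval from -0.76 to 0.51, each with an adjusted p of 1 by edgeR. The library ranges of the genotypes overlapped in both states. All 6 muscle fibre markers were called higher on activation in each genotype, as *Mif* was, with median log2 fold changes of 4.53 in WT and 4.47 in KO. All 8 satellite cell markers were lower in each genotype, and 7 of 8 were called lower in WT and 8 of 8 in KO. Of all tested genes, 18.3% were called lower in WT and 20.4% in KO. The part of these shifts in the levels of *Mif*, *Ackr3* and *Cxcr4* was not tested.

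Reads of *Mif* can be shared with processed pseudogenes, of which 6 were at least 90% identical to it over at least 80% of their length. *Gm10169* at 99.1% and *Gm5228* at 90.8% identity had 0 counts, and *Gm16379*, *Mif-ps3*, *Gm8762* and *Mif-ps7* had 182 counts in all over the 12 libraries, against 17669 for *Mif*. With the copies added to *Mif*, the log2 fold change on activation was 1.68 in WT and 1.53 in KO. The other 3 genes had no such copy.

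*Ackr3*, the scavenging receptor, was the most abundant of the 4 genes per length in quiescent WT cells and fell on activation in both genotypes. Quiescent WT libraries had 457, 503, 570.3 and 652 CPM, from 7092 to 13540 counts, and activated WT libraries had 43.0 and 30.2 CPM, from 263 and 69 counts. The groups lay far apart, with a 14.8-fold decrease (log2 fold change -3.89, SE 0.31, adjusted p = 4.41e-08 by edgeR). Quiescent KO libraries had 393, 443, 418 and 536 CPM, and activated KO libraries had 26.2 and 29.7 CPM. The decrease in KO cells was 16.0-fold (log2 fold change -4.00, SE 0.31, adjusted p = 2.78e-08 by edgeR), where 33.7% of genes were called, 20.4% were called lower, 36.1% had lower libraries without overlap and the median log2 fold change over all tested genes was -0.96. In the quiescent state *Ackr3* differed between KO and WT by -0.29 (SE 0.20, adjusted p = 1 by edgeR) on the log2 scale, with a 95% interval from -0.68 to 0.11, and the libraries overlapped. In the activated state both KO libraries lay below both WT libraries, as held for 9.5% of genes, at a log2 fold change of -0.40 (SE 0.30, adjusted p = 0.801 by edgeR, 95% interval from -0.99 to 0.19) that did not pass. The differences between these effects were -0.11 (SE 0.36) for *Ackr3*, -0.14 (SE 0.40) for *Mif* and 0.96 (SE 0.64) for *Cxcl12*, with adjusted p-values of at least 0.888 by edgeR.

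**Figure D3:**
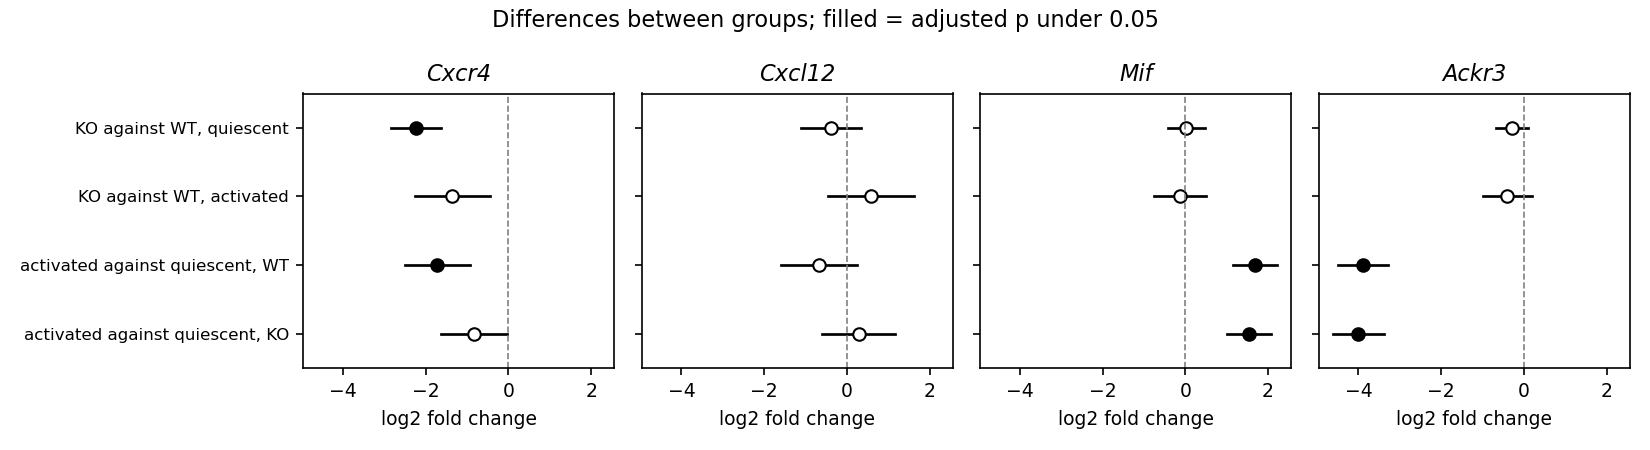
Log2 fold change of each gene in 4 comparisons, with the point at the edgeR estimate, the line spanning 1.96 standard errors on each side and a filled point at an adjusted p under 0.05. *Cxcr4* is filled for KO against WT in the quiescent state and for activated against quiescent WT cells, *Mif* and *Ackr3* are filled for both comparisons of state, and *Cxcl12* is open throughout. The line of *Cxcr4* for activated against quiescent KO cells ends at -0.037, although its unadjusted p was 0.0540 by edgeR.

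Levels of different genes were compared per length, as FPKM from the CPM and the union of annotated exons, which is 1808 bases for *Cxcr4*, 8176 for *Cxcl12*, 745 for *Mif* and 3348 for *Ackr3*. The length of *Cxcl12* joins alternative last exons, so that its FPKM is lower than it would be for a single isoform. That of *Mif* includes a retained intron. The order of *Cxcl12* and *Cxcr4*, and that of *Mif* and *Ackr3*, can therefore depend on these lengths. Levels at single-isoform lengths were not computed. In quiescent WT cells the order was *Ackr3* at 163 ± 25.3, *Mif* at 115 ± 21.8, *Cxcr4* at 44.5 ± 14.0 and *Cxcl12* at 23.0 ± 9.27 FPKM (SD, n = 4). With these lengths the order held within each of the 4 libraries. The ranges of the neighbours *Ackr3* and *Mif* overlapped across libraries, as did those of *Cxcr4* and *Cxcl12*, at 33.9 and 32.8 FPKM in WT 1. In quiescent KO cells *Ackr3* stood at 134 ± 18.6, *Mif* at 117 ± 19.2, *Cxcl12* at 17.6 ± 8.93 and *Cxcr4* at 9.46 ± 1.96 FPKM (SD, n = 4). *Cxcr4* was lowest in 3 of those 4 libraries, and the first 2 genes overlapped.

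After activation *Mif* stood first in every library, at 371 ± 86.8 FPKM in WT and 340 ± 140 in KO (SD, n = 2). *Cxcl12* had 14.4 ± 1.93, *Cxcr4* 13.2 ± 7.38 and *Ackr3* 10.9 ± 2.69 FPKM in activated WT, and these 3 overlapped. In activated KO cells *Cxcl12* had 21.5 ± 15.4, *Ackr3* 8.34 ± 0.730 and *Cxcr4* 5.28 ± 3.24 FPKM, in the same order in both libraries. The ratio of *Ackr3* to *Cxcr4* in FPKM was 3.14 to 4.60 in quiescent WT, 11.3 to 18.0 in quiescent KO, 0.696 and 1.13 in activated WT and 2.62 and 1.17 in activated KO libraries. The ratio of *Mif* to *Ackr3* was 0.660 to 0.738 in quiescent WT, 0.775 to 1.04 in quiescent KO, 24.1 and 47.9 in activated WT and 56.1 and 27.2 in activated KO libraries. In the authors' FPKM, given as 1 value per group with no spread, *Ackr3* was 158, 130, 11.1 and 8.17 and *Mif* 112, 114, 382 and 335 in quiescent WT, quiescent KO, activated WT and activated KO. *Cxcr4* was 43.2, 9.25, 13.3 and 5.13 and *Cxcl12* 22.4, 17.1, 14.8 and 20.9 in the same order.

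The genes around these 4 were described from lists of receptors, ligands and signalling components. No gene of the 8 lists passed between KO and WT in either state by edgeR's quasi-likelihood test. Of all tested genes, 0.0155% passed in the quiescent and 0.0504% in the activated state, so that this lies near the share over all genes. The study's own DESeq2 test did call *Rgs16*, of the desensitization genes, lower in activated KO cells. It had 140 ± 47.6 CPM in activated WT and 41.8 ± 10.7 in activated KO (SD, n = 2). Its log2 fold change here was -1.75 (SE 0.46, adjusted p = 0.211 by edgeR). Of 113 list entries tested, 10 (8.85%) were higher and 31 (27.4%) lower in activated than in quiescent WT cells, beside 11.5% and 18.3% of all tested genes. Among the other MIF receptors, *Cd74*, the invariant chain that binds MIF on the cell surface, fell from 58.4 ± 39.3 CPM in quiescent WT (SD, n = 4) to 8.30 ± 1.21 in activated WT (SD, n = 2), with a log2 fold change of -2.79 (SE 0.69, adjusted p = 0.00445 by edgeR). *Cd74* is also an abundant transcript of antigen-presenting blood cells, and the hematopoietic markers were lower in the activated libraries, with 5 of 10 called lower, and their part in its change was not tested. *Cd44*, the coreceptor of CD74, had 325 ± 198 and 512 ± 13.2 CPM and did not pass. *Cxcr2*, which MIF also binds, had 0 counts in all 4 activated libraries and 1.27 CPM in quiescent WT.

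Of 7 other ligands of these receptors, counted with the MIF homolog *Ddt*, 2 (28.6%) rose and none fell in activated WT cells, and 3 (42.9%) rose in KO, where 11.5% and 13.3% of all genes were called higher. *Adm*, which encodes adrenomedullin, a peptide that ACKR3 takes up, rose from 14.8 ± 1.05 to 53.3 ± 3.47 CPM (log2 fold change 1.85, SE 0.40, adjusted p = 0.00159 by edgeR). *Penk*, the precursor of enkephalins, which ACKR3 also binds, rose from 1.56 ± 0.389 to 8.64 ± 7.88 CPM (log2 fold change 2.51, SE 0.67, adjusted p = 0.00782 by edgeR). Both passed in KO cells too, at 1.39 and 2.12. The median log2 fold change of this list in WT was 0.41, beside -0.92 over all tested genes.

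Of 22 other chemokine receptors, 19 were tested, and 4 (21.1%) fell and none rose in each genotype, a share near the 18.3% in WT and 20.4% in KO of all genes called lower. The highest per length in any group were *Ackr1*, the Duffy antigen receptor of venular endothelium, at 31.7 FPKM, *Ccrl2*, a chemerin-binding receptor, at 14.0, and *Ccr7*, the lymph node homing receptor, at 6.54, all in quiescent KO cells. In quiescent WT cells they had 25.7, 11.6 and 4.27 FPKM, all below the means of *Cxcr4* and *Ackr3* there. *Cxcr5*, the B cell follicle homing receptor, had 4.74 ± 1.63 CPM in quiescent and 0.408 ± 0.578 in activated WT (log2 fold change -3.11, SE 1.00, adjusted p = 0.0235 by edgeR). *Ccr4* fell by 2.22 on the log2 scale (SE 0.82, adjusted p = 0.0484 by edgeR). *Ccr10* had 2 counts in activated and 325 in quiescent WT libraries, a ratio of 0.0562 with an exact 95% counting interval from 0.00678 to 0.205. These receptors rest on few counts, 4 to 5 in activated WT for *Ccr4* and *Cxcr5*.

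Among the signalling components, the 14 G protein subunits had 3 (21.4%) lower and none higher in activated WT, near the 18.3% of all genes called lower. *Gnai2*, an inhibitory alpha subunit through which CXCR4 signals, fell from 379 ± 43.3 to 97.1 ± 7.29 CPM (log2 fold change -1.96, SE 0.27, adjusted p = 1.90e-05 by edgeR). *Gnao1* and *Gna13*, which encode further alpha subunits, fell by 2.81 (SE 0.31) and by 1.76 (SE 0.32) on the log2 scale. All 3 passed in KO cells as well, at -1.79, -4.15 and -1.87. The beta subunit gene *Gnb1* was at 218 CPM in quiescent and 285 CPM in activated WT and did not pass.

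Of 16 genes for desensitization and trafficking of these receptors, 3 (18.8%) rose and 5 (31.2%) fell in activated WT, beside 11.5% and 18.3% of all genes. *Rgs4*, which speeds up the shut-off of G protein alpha subunits, fell from 148 ± 18.2 to 7.28 ± 2.87 CPM (log2 fold change -4.28, SE 0.34, adjusted p = 4.41e-08 by edgeR). *Grk3*, a kinase that phosphorylates active receptors, fell by 3.76 on the log2 scale (SE 0.49, adjusted p = 8.74e-06 by edgeR), and *Rgs14* had 1 count in activated WT against 195 in quiescent WT, a ratio of 0.0469 with an exact 95% counting interval from 0.00118 to 0.264. The arrestin genes, chosen for naming after their values were seen because ACKR3 recruits arrestins, differed. *Arrb1* fell from 106.5 ± 13.5 to 10.3 ± 0.387 CPM (log2 fold change -3.36, adjusted p = 3.26e-06 by edgeR), while *Arrb2* had 14.6 ± 1.19 and 13.0 ± 2.02 CPM and did not pass.

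Of 36 downstream kinases and adaptors, 4 (11.1%) rose and 11 (30.6%) fell in activated WT, beside 11.5% and 18.3% of all genes. Their median log2 fold change was -0.21, beside -0.92 over all genes. *Stat3*, a transcription factor that JAK kinases activate, fell from 1394 ± 315 to 110.3 ± 27.7 CPM (log2 fold change -3.66, SE 0.34, adjusted p = 2.35e-07 by edgeR). *Ptk2b*, a focal adhesion family kinase, had 461 counts in quiescent and 0 in activated WT libraries, at least 16.8-fold lower against a floor of 3 counts over the activated group. *Pik3cg*, the PI3 kinase subunit that G proteins activate in leukocytes, had 125 and 0 counts, at least 4.56-fold lower against the same floor.

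Of 11 proteases and heparan sulfate proteoglycans that trim or hold CXCL12, 1 (9.09%) rose and 4 (36.4%) fell in activated WT, beside 11.5% and 18.3% of all genes. *Gpc1*, which encodes glypican 1, rose from 114 ± 13.3 to 389 ± 18.9 CPM (log2 fold change 1.77, SE 0.31, adjusted p = 0.000191 by edgeR). *Hspg2*, which encodes perlecan of the basement membrane, fell by 2.34 (SE 0.38), and *Mmp2*, a protease that can cleave CXCL12, fell by 1.73 (SE 0.50) on the log2 scale. Of 7 transcription factors reported to act on *Cxcr4* or *Cxcl12*, 3 (42.9%) fell and none rose in WT, where 18.3% of all genes fell. *Epas1*, the hypoxia factor HIF2A, fell from 380.3 ± 159 to 45.5 ± 14.2 CPM (log2 fold change -3.05, SE 0.57, adjusted p = 0.000400 by edgeR), while *Hif1a* had 106 ± 18.5 and 109 ± 17.5 CPM and did not pass. *Pax3*, a regulator of muscle progenitors, fell by 3.75 (SE 0.50) and *Foxc1* by 1.81 (SE 0.58). *Nrf1*, whose partial site lies in the *Cxcr4* window above, had 32.2 ± 3.33 and 41.4 ± 12.1 CPM and did not pass in WT. In KO cells it was called higher, at 33.4 ± 5.09 and 63.1 ± 21.7 CPM (log2 fold change 0.92, SE 0.26, adjusted p = 0.0111 by edgeR).

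**Figure D4:**
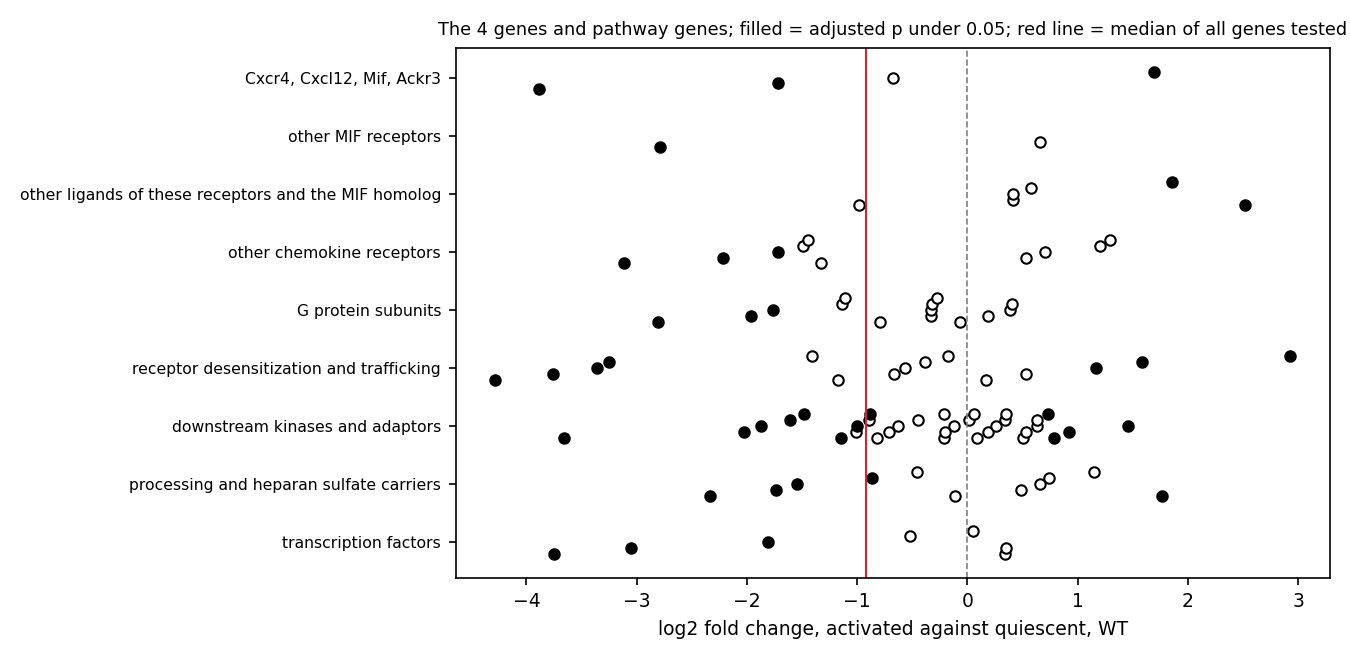
Log2 fold change between activated and quiescent WT cells for *Cxcr4*, *Cxcl12*, *Mif* and *Ackr3* (top row) and for 98 entries of 8 pathway lists, with 1 point per gene, filled at an adjusted p under 0.05, and the red line at the median of all tested genes, -0.92. Another 15 entries with at most 3 counts in the activated WT libraries are not drawn, and both directions occur in most lists. The filled points of the chemokine receptors, G protein subunits, other MIF receptors and transcription factors are all below 0, and those of the other ligands are all above 0.

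Within groups, each of the 4 genes varied with a different set of genes. Over the 12 libraries with group means removed, with 9553 well-expressed genes compared (average log2 CPM above 3), the genes most like *Cxcr4* were *Fermt3*, the kindlin of blood cells (r = 0.965), *Zfp276* (0.958), *Cytip* (0.955), *Tmem191c* (0.939) and *Zfp653* (0.932). Those most like *Cxcl12* were *Cav2*, a caveolin (r = 0.979), *Rasgrp3* (0.974), *Ccm2l* (0.965), *C1s1* (0.965) and *Abcg2* (0.964). Those most like *Ackr3* were *Mbd2* (r = 0.984), *Medag* (0.967), *Cltb* (0.965), *Rab3gap1* (0.959) and *Pitpna* (0.956). Those most like *Mif* were *Fau* (r = 0.952), *Rps14* (0.947), *Shmt2* (0.946), *Rpl28* (0.941) and *Cfl1* (0.939), of which *Fau*, *Rps14* and *Rpl28* encode ribosomal proteins. These are the highest of many correlations over libraries that share depth and cell makeup, and they are given as a description.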

How the data were processed

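The authors trimmed reads with TrimGalore 0.6.0, mapped them to GRCm38.p6 (mm10) with STAR 2.7.2a and assigned them to GENCODE genes by Rsubread. The deposited counts are whole reads per gene, not normalized. How reads with several matches or the strand were handled is not given in the sources used here. The authors also deposited FPKM, 1 value per group, by a method not given in the sources used here.

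From the counts, edgeR 4.0.16 in R 4.3.3 removed low genes (filterByExpr), scaled by TMM and fitted all 12 libraries in 1 quasi-likelihood model with a mean per group. P-values were adjusted by Benjamini-Hochberg over 25771 genes, with a call at an adjusted p under 0.05. Standard errors follow from each fold change and the F of its test, intervals span 1.96 of them on each side, and a prior count of 2 went into log2 CPM. Lengths came from GENCODE M21, which holds 55141 of the 55401 gene IDs, promoter windows from RefSeq, and copies from blastn 2.17.0. The fit was tested on simulated data. Correlations used exact permutation tests.

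Quiescent libraries held between 12775593 and 23717013 counts and activated ones between 3172164 and 5427280, and counting intervals and floors cover counting error only. Groups came from the labels. The study counts independent mice as its samples in general, but neither its text nor the labels say for these libraries that those of a group came from separate mice, so p-values measure the spread between these libraries, which may be technical. In each of the 14 pairs of libraries of a group the counts differed by more than sampling noise (chi-square per degree of freedom at least 13.6). The 4 genes and the gene lists were chosen with earlier results of these data known. Named from each pathway list were up to 3 genes with the largest change among those that passed in activated against quiescent WT, any that passed between genotypes, the 3 chemokine receptors highest in FPKM, and for each of the 4 genes the 5 most alike. The markers were read as checks, and *Cd44*, *Cxcr2*, *Gnb1*, *Rgs16*, *Arrb1*, *Arrb2*, *Hif1a* and *Nrf1* were named after their values were seen. Alternatives were DESeq2's size factors, no or a stricter filter, the compared groups alone, DESeq2 1.42.0, a robust fit, a replicate block, removal of the rRNA-rich gene, a stricter call rule and leaving out each library.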

Additional observations from a re-analysis of the deposited data

How the results depend on the processing

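Over all comparisons and alternatives, the refits gave 324 values of the 4 genes, each for 1 gene, 1 comparison and 1 setting. Of these, 303 kept the direction and the side of the threshold, 1 lost a call, 3 gained one and 17 changed sign. They share fits and libraries and are not independent. Every sign change concerned a value that had not passed. The calls of *Ackr3* and *Mif* between states and of *Cxcr4* between genotypes in the quiescent state held in every refit. The cause of the changes was not tested.

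With each library left out in turn, *Mif* in KO against WT ranged from -0.081 to 0.12 (quiescent) and -0.64 to 0.18 (activated), with its difference between states from -0.66 to 0.17. *Cxcl12* in KO against WT ranged from -0.50 to 1.15 in activated cells, its difference between states from -0.11 to 1.51, and its change on activation in KO from -0.72 to 0.86. The difference between states ranged from -0.41 to 0.081 for *Ackr3*. *Cxcr4* on activation ranged from -2.40 to -1.22 in WT and from -1.65 to -0.32 in KO. The number of genes called ranged from 3 to 7 (KO against WT, quiescent), 0 to 211 (activated), 0 to 82 (difference), 4524 to 7244 (activation, WT) and 5066 to 8780 (activation, KO).

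Without both activated libraries numbered 2, an alternative chosen after seeing the data, KO against WT in activated cells was -2.65 for *Cxcr4* (adjusted p = 0.0483 by edgeR), -0.33 for *Cxcl12* and 0.47 for *Mif*. The difference between states was -0.40 for *Cxcr4* and 0.46 for *Mif*. Activation in KO was -1.64 for *Cxcr4* (adjusted p = 0.0204 by edgeR) and -0.71 for *Cxcl12*. The genes called were then 83 (KO against WT, activated), 48 (difference), 4714 (activation, WT) and 5652 (activation, KO).

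The 13 genes called in KO against WT in activated cells became 8 with DESeq2's size factors, 334 without a filter, 2 with a mean count of at least 10, 3 with the compared groups alone, 144 with DESeq2 and 20 with a robust fit. The 0 genes of the difference became 170 without a filter, 47 with DESeq2, 8 with a robust fit and 1 without the rRNA-rich gene. The 4 genes of the quiescent comparison became 50 without a filter. Whether the replicate numbers pair the libraries was not settled. Correlations of same-numbered deviations were 0.31, 0.16, -0.35 and 0.66 in quiescent cells, and differently numbered ones ranged from -0.56 to 0.39. In activated cells the correlation was -0.11, but with 2 libraries per group all pairs share 1 size of correlation. Same-numbered quiescent WT and KO libraries were close in total counts, as in 12775593 and 13075208 for those numbered 2. With the replicate block, 3 genes passed for the difference, and 10 with the activated numbers crossed, and no call on the 4 genes changed under either.

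The planned correlation of *Cxcl12* with the endothelial markers was taken across the gap between 2 sets of quiescent libraries, and the part of the gap in it was not tested. It was 0.968 (exact permutation p = 0.00146) and 0.918 (exact permutation p = 0.0556) without the 2 libraries farthest from the median. For the fibroadipogenic markers the log2 of the summed CPM gave 0.161 (exact permutation p = 0.711) in place of 0.629. Left-out libraries gave 0.471 to 0.849 for the fibroadipogenic markers, with 0.849 (exact permutation p = 0.0202) without the quiescent KO library numbered 1. *Cxcr4* rested on 21 to 204 counts in each activated library, with 2 libraries per group.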
